A study of Rattus norvegicus with 96 samples.

Results

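The arrays described here are the 16 taken from the shell of the nucleus accumbens of P rats 24 h after the last drinking episode, of 96 arrays in the series. They were chosen by their titles, which give the region, the hours since drinking, the treatment and a number for each array. P rats are a line bred for high voluntary alcohol intake. Of these 16 arrays, 11 came from rats exposed to limited access ethanol (title numbers 52 to 62) and 5 from rats given water (title numbers 30 to 34). The labels read here name no other treatment or allele in either group, and age, dose, intake and scan date are not given in the sources used here.

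The same region was also sampled 1 h after drinking (10 ethanol and 7 water arrays) and 6 h after drinking (10 ethanol and 5 water arrays), each time with its own water group. The central nucleus of the amygdala was sampled at 24 h with 10 ethanol and 6 water arrays. Total RNA was amplified in a 2-cycle protocol and hybridised to Affymetrix rat arrays. Values are RMA values on the log2 scale, so a difference of 1 is a doubling. The labels do not state that each array is a separate animal, so p-values here measure the spread between arrays.

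The accumbens shell is the ventromedial part of the striatum and receives dopamine from the ventral tegmental area. Most of its neurons are medium spiny neurons, GABA-releasing projection cells that carry dopamine D1 or D2 receptors and the peptides substance P or enkephalin. The region takes part in reward and feeding and in the reinforcing action of alcohol.

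The medium spiny neuron markers were high on these arrays. Of 11 listed markers, 10 had a tested probe set, and their levels over the 48 shell arrays ran from 9.5 for Adcy5, the main striatal adenylyl cyclase, to 14.4 for Penk, the enkephalin precursor. Markers of other cells were also measured. Of 9 listed markers of cortical glutamatergic neurons, 5 lay below the level needed for testing, among them Slc17a7 and Tbr1, while Lamp5 lay at 12.8, Nptx1 at 11.5, Neurod2 at 7.96 and Fezf2 at 7.46. The astrocyte markers (Gja1 at 14.2) and oligodendrocyte markers (Mbp at 14.5) were high. In such tissue, fewer cells of a type and less RNA per cell cannot be told apart.

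No probe set passed at 24 h. Of 18625 probe sets tested, 0 had an adjusted p under 0.05 in limma, the linear-model test fitted here over all 48 shell arrays, and 696 (3.74%) had an unadjusted p under 0.05, of which 434 were higher (2.33%) and 262 lower (1.41%) in ethanol rats. All but the outermost differences lay between -0.16 and 0.19, the limits that leave 0.05 of them on either side. The smallest adjusted p in limma was 0.186, for Snd1. All values below are therefore differences that did not pass, given with their spread, and the genes named are those with the smallest p in each direction. On 18625 simulated probe sets in this layout, limma recovered 60% of changes of 0.5 and 8% of changes of 0.25. Each size was given to 50 probe sets, changes of 0.75 and 1 were planted beside them, and the simulated probe sets varied independently. The shares may therefore differ for the real arrays.

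Snd1 codes for a protein with staphylococcal nuclease-like and Tudor domains that acts as a transcription coactivator and in RNA processing and decay. Its level in the 5 water arrays was 9.29, 8.99, 9.18, 9.23 and 9.48, and in the ethanol arrays it lay between 9.43 and 9.67 with a median of 9.53. The ethanol arrays were all above the water mean, and 9 of 11 were above every water array, so the groups overlapped only through the highest water array. The difference was 0.31 ± 0.06 (standard error of the fit), a 1.24-fold higher level. Without that highest water array, number 34, it was 0.37 and passed (adjusted p = 0.0118 in limma, against a range up to 0.999 over the other settings tried).

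The sequence upstream of Snd1 is shown because it is the gene with the smallest p, and that of Ndufs3 because its groups did not overlap. Both are the 250 bases before the annotated start, 5′ to 3′ in the direction of the gene, from the RefSeq table of promoters on the GRCr8 build. Capitals mark CCAAT and GGGCGG, read on both strands, so ATTGG and CCGCCC are their reverse complements. The Snd1 window lies at chr4:58060439-58060688 on the plus strand and the Ndufs3 window at chr3:97339655-97339904 on the minus strand.
Snd1: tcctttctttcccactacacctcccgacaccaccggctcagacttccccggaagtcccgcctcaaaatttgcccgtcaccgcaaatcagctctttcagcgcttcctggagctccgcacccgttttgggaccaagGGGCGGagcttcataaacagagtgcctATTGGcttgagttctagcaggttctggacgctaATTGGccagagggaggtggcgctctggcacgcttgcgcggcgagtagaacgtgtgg
Ndufs3: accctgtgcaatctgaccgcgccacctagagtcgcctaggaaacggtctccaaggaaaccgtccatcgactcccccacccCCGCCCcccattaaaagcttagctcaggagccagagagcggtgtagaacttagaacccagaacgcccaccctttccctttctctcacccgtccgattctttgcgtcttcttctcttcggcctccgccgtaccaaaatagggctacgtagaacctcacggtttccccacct
The Snd1 window held 2 CCAAT and 1 GGGCGG, and the Ndufs3 window held 1 GGGCGG. Of all 33469 windows in the table, 34% held a CCAAT and 30.5% a GGGCGG. Of the 12 genes named as higher, 9 had a window in the table, of which 7 held a GGGCGG and 2 a CCAAT. Of the 12 named as lower, 10 had a window, of which 5 held a GGGCGG and 3 a CCAAT. The windows of the table include genes not tested here, and the shares over tested genes alone were not counted. No enrichment is therefore read from these counts. These are matches of letters, not sites, and no factor was measured.

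Among the other genes with the smallest p on the higher side, several work on organelles and transport. Kif5c, a neuronal kinesin heavy chain that moves cargo along microtubules, had the largest difference of the named genes, 0.72 ± 0.18. It measured 6.89, 6.78, 6.94, 7.02 and 6.81 in water and 7.01 to 8.23 in ethanol, with a median of 7.67. Only the lowest ethanol array fell within the water range. The other Kif5c probe sets differed by 0.16 ± 0.23 and 0.24 ± 0.15, and the one named was near the lowest levels tested. Gorasp2, which tethers stacks of the Golgi, measured 10.14, 9.85, 9.93, 9.87 and 9.95 in water and 9.92 to 10.51 in ethanol (median 10.30), a difference of 0.32 ± 0.09. In ethanol, 8 of 11 arrays were above every water array, and 1 was below the water mean.

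Hdac11, a histone deacetylase that is abundant in brain, measured 11.59, 11.31, 11.60, 11.49 and 11.5 in water and 11.62 to 11.94 in ethanol (median 11.77). Ndufs3, a core subunit of respiratory complex I, measured 11.56, 11.59, 11.51, 11.55 and 11.51 in water and 11.60 to 12.13 in ethanol (median 11.83). For both genes every ethanol array was above every water array, and the differences were 0.27 ± 0.08 for Hdac11 and 0.27 ± 0.08 for Ndufs3. Groups did not overlap for 10 of the 18625 probe sets (0.0537%), 5 in each direction. The 16 arrays can be split into 11 and 5 in 4368 ways. Over 18625 probe sets a count of this order would arise without any ethanol difference, so non-overlap is given only as a description. The higher side also held Pdss2, which makes the side chain of coenzyme Q (0.25 ± 0.08), and Tars3, a threonyl-tRNA synthetase (0.19 ± 0.07), both named after their values were seen. For Tars3, water array 31 measured 9.23 and the next lowest water array 9.70, and without array 31 the difference was 0.09.

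Of these 10, the probe set with the largest difference had no gene named here, 1380206_at, and was picked out after its values were seen. It measured 9.24, 9.29, 9.43, 9.28 and 9.19 in water and 9.54 to 10.50 in ethanol, with a median of 10.13. Its difference was 0.83 ± 0.18, a 1.78-fold higher level, with an adjusted p of 0.398 in limma. With the 16 arrays alone in the fit, the adjusted p in limma was 0.0452, the only one to pass in that fit.

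**Figure D1:**
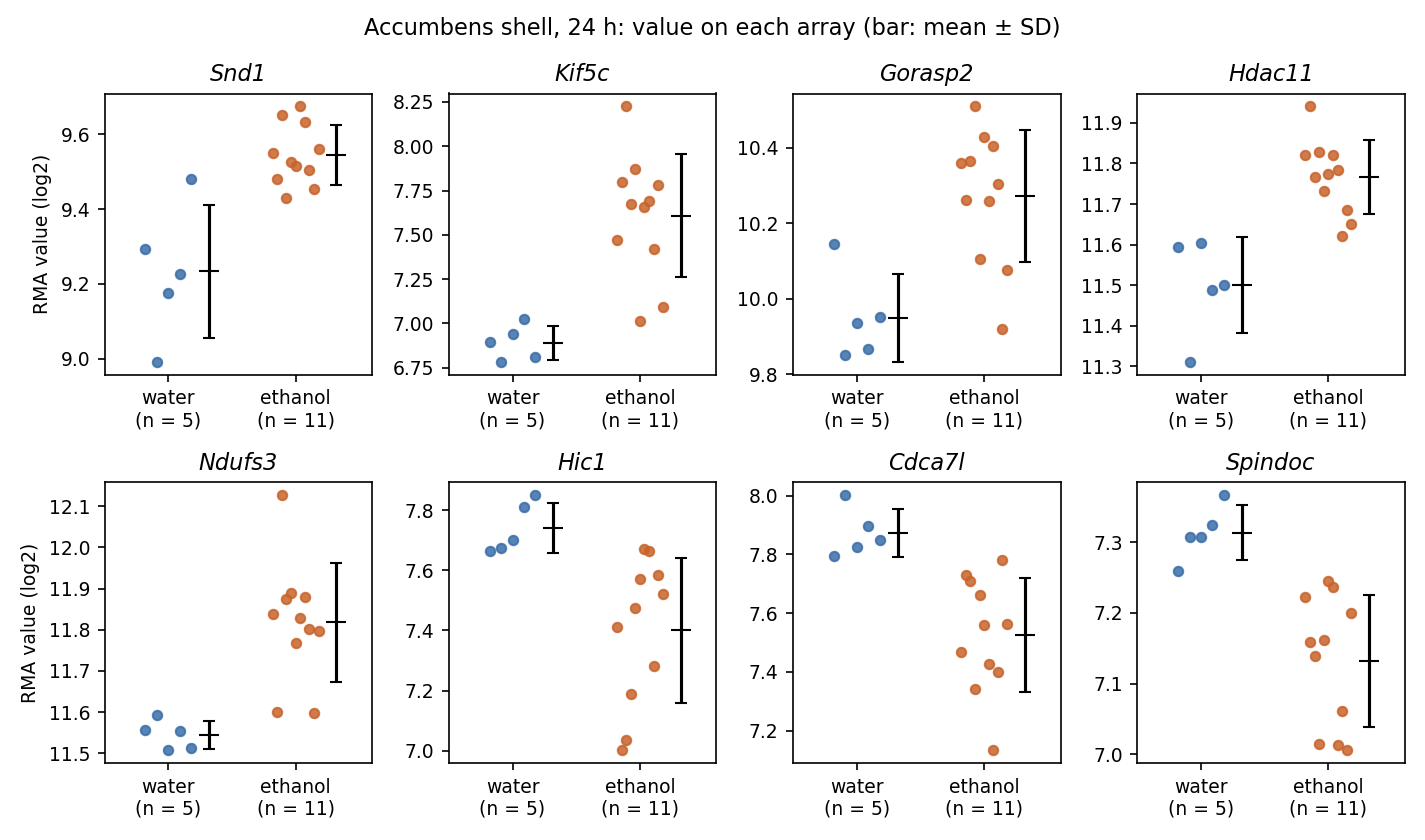
Values on each array of 8 of the named genes at 24 h, with the RMA value (log2) on the y axis, 5 water arrays and 11 ethanol arrays as dots, and the mean ± SD as a bar. The groups do not overlap for Hdac11, Ndufs3, Cdca7l and Spindoc, and overlap by the highest water array for Snd1.

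The other genes named as higher were of mixed function. Mrto4, an assembly factor of the large ribosomal subunit, was higher by 0.25 ± 0.07, with 10 of 11 ethanol arrays above every water array, while its other probe set differed by 0.03 ± 0.08. Rpl11, a protein of that subunit, was higher by 0.30 ± 0.09, and its water arrays were 13.05, 13.07, 13.32, 13.02 and 13. Exosc4, a subunit of the RNA exosome, was higher by 0.26 ± 0.08. Tfpt, a subunit of the INO80 chromatin remodeller, was higher by 0.39 ± 0.11. Fkbpl (0.35 ± 0.10), an FKBP-family protein, Zbtb22 (0.25 ± 0.08), a zinc finger protein, and Ephb6 (0.27 ± 0.08), an Eph receptor without kinase activity, complete the 12. In 11 of the 12 genes every ethanol array was above the water mean, and Gorasp2 was the exception. The genes were chosen for a small p in this same comparison, so such counts are favoured by the choice and support nothing. This holds equally for the array counts of the genes named as lower. The share over all probe sets is not given here.

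The 12 genes named as lower differed by between -0.35 and -0.17, with a median of -0.23. Hic1, a transcriptional repressor, measured 7.67, 7.68, 7.70, 7.81 and 7.85 in water and 7.0 to 7.67 in ethanol (median 7.47), a difference of -0.34 ± 0.09. All but the highest of its ethanol arrays were below every water array. Cdca7l, a cell-division-associated nuclear protein that binds Myc, measured 7.79, 8.0, 7.83, 7.90 and 7.85 in water and 7.13 to 7.78 in ethanol (median 7.56). Its groups did not overlap, and it was lower by -0.35 ± 0.11. Spindoc, a partner of the histone reader Spin1, also did not overlap, with 7.26 to 7.37 in water, 7.01 to 7.24 in ethanol and a difference of -0.18 ± 0.06.

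Pclaf, a PCNA-binding protein of replicating cells, and Prc1, which organises the spindle midzone in cytokinesis, differed by -0.34 ± 0.11 and -0.34 ± 0.11. Water array 32 stood above the rest for both: it measured 8.20 for Pclaf, where the other water arrays measured 7.22 to 7.49, and 8.35 for Prc1, where they measured 7.08 to 7.34. Ethanol arrays lay between 6.93 and 7.43 for Pclaf and between 6.90 and 7.26 for Prc1, near the lower limit of the tested range. Without water array 32 the differences were -0.16 for Pclaf and -0.11 for Prc1. A list of 45 genes of DNA replication and mitosis was added after these genes were seen, so its count supports nothing. It had 21 tested members, of which 7 were above 0, with a median of -0.04.

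The remaining genes named as lower were of mixed function. Dapk2, a calmodulin-regulated kinase of cell death, was lower by -0.21 ± 0.07 and lay below the water mean on 11 of 11 ethanol arrays. Ppp3ca, the catalytic subunit of calcineurin, gave -0.17 ± 0.06 on 1 low-level probe set and 0.02 ± 0.12 and 0.05 ± 0.11 on its others. Ifnar1, a chain of the type I interferon receptor, gave -0.23 ± 0.08 on the named probe set and 0.13 ± 0.11, -0.04 ± 0.11 and -0.03 ± 0.14 on the others. Ankrd13d, an ubiquitin-binding adaptor of endocytosis, gave -0.17 ± 0.06 and, on its other probe set, 0.12 ± 0.09. Probe sets of these 3 genes thus did not share a direction. Chst14, a sulfotransferase of dermatan sulfate (-0.18 ± 0.06), Fam163b (-0.32 ± 0.11) and Tmem81 (-0.23 ± 0.08) were the others.

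The same 24 genes were compared with the earlier times, where each time has its own water group. The median difference of the 12 higher genes was 0.05 at 1 h, 0.15 at 6 h and 0.29 at 24 h, and 0.06 in the amygdala at 24 h. For the 12 lower genes these medians were -0.02, -0.04, -0.23 and -0.02. The genes were chosen at 24 h, so a larger value there is fixed by the choice. The values at the other times, which the choice did not use, were on the same side of 0 for 10 of 12 higher genes at 1 h and 11 of 12 at 6 h, and for 7 and 8 of the 12 lower genes. Over all probe sets tested the share on the same side as at 24 h was 58.3% at 1 h and 66.7% at 6 h. Over the 434 higher probe sets with an unadjusted p under 0.05 at 24 h it was 76.3% and 88.5%, and over the 262 lower ones 64.1% and 79%. The counts of the named genes thus lay near these shares and are no result about them.

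**Figure D2:**
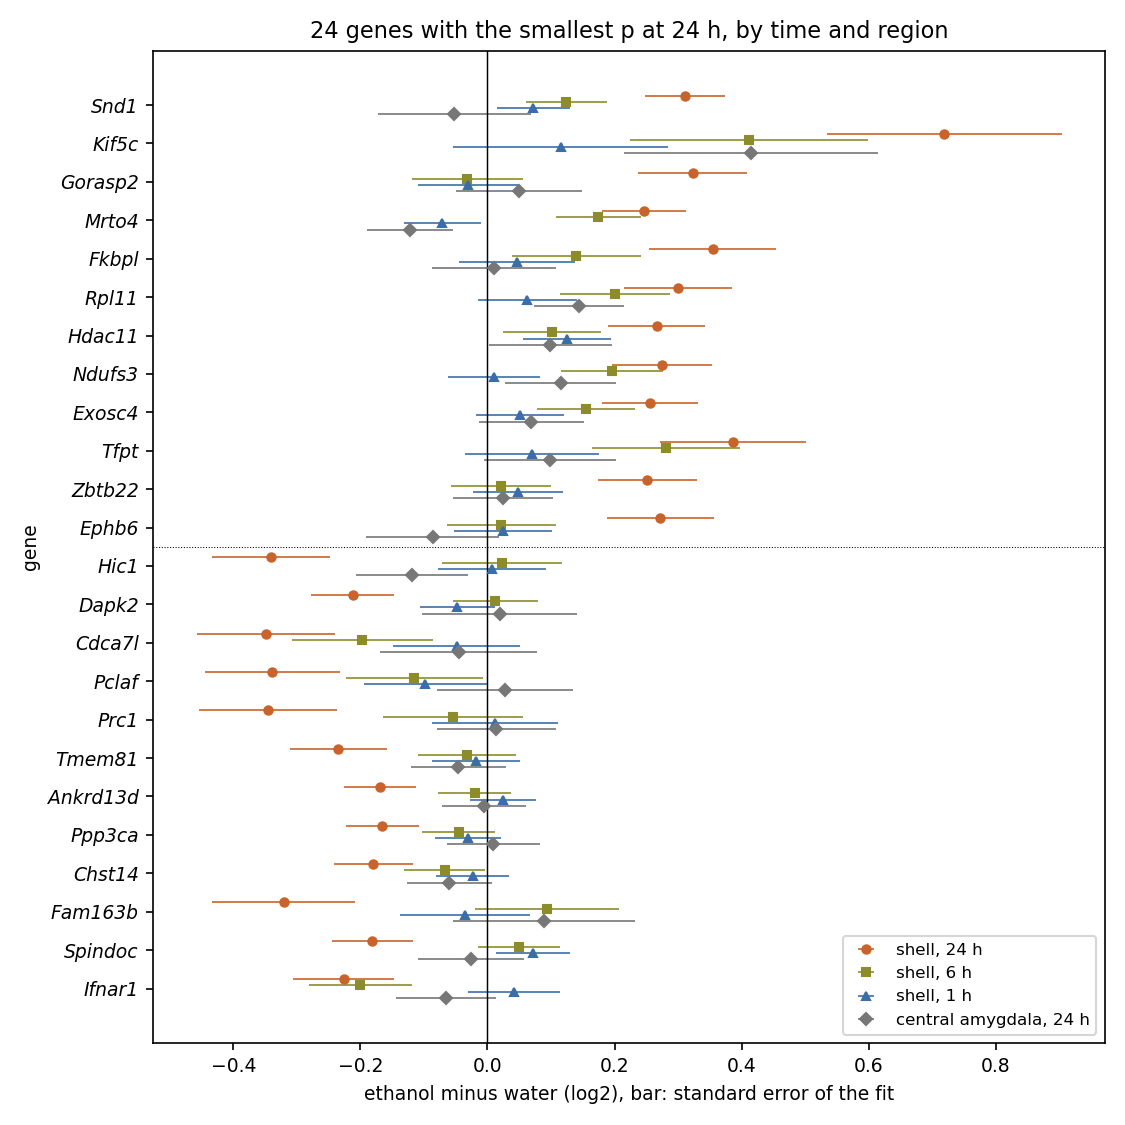
Ethanol minus water (log2, x axis) for the 24 genes named at 24 h (y axis), with the standard error of the fit, at 1, 6 and 24 h in the accumbens shell and at 24 h in the central amygdala. The 12 genes above the dotted line were chosen as higher and the 12 below as lower at 24 h, and Kif5c has the largest value, 0.72.

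The group means of these genes are given as a description. The genes were chosen for a small p against the 5 water arrays at 24 h, so extreme 24 h means, of that water group above all, are built in by the choice. Snd1 averaged 9.59, 9.53 and 9.54 in ethanol rats at 1, 6 and 24 h, and 9.52, 9.41 and 9.23 in water rats. Ethanol means were thus nearly level, while the water means were lower at each later time. For 11 of the 12 higher genes the water mean at 24 h was the lowest of the 3 water means, and for 9 the ethanol mean at 24 h was the highest of the ethanol means. From 1 h to 24 h the median shift over the 12 genes was -0.25 in water rats and 0.03 in ethanol rats. Gorasp2 was an example, with water means of 10.23, 10.21 and 9.95 against ethanol means of 10.20, 10.18 and 10.27. Hic1 was its opposite, with water means of 7.39, 7.48 and 7.74 and ethanol means of 7.40, 7.5 and 7.40. The 12 lower genes shifted by a median of 0.12 in water rats and -0.10 in ethanol rats.

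Over all probe sets, water rats at 24 h against water rats at 1 h gave 0 passing in limma and 1098 (5.9%) with an unadjusted p under 0.05, of which 758 were lower at 24 h (4.07%). Ethanol rats gave 0 passing in limma and 522 (2.8%) with an unadjusted p under 0.05, of which 276 were lower (1.48%). The ethanol comparison at 24 h shares its water arrays with the first of these comparisons, so the counts are not independent.

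The difference between the ethanol effect at 24 h and the mean of the effects at 1 h and 6 h was tested directly. In limma 0 probe sets passed and 234 (1.26%) had an unadjusted p under 0.05. Of the 6 genes with the smallest p, Gorasp2 (0.35 ± 0.10), Psme4 (0.52 ± 0.17) and Hbb (0.57 ± 0.19) were more positive at 24 h, and Hic1 (-0.36 ± 0.11), Spindoc (-0.24 ± 0.08) and Kcnc4 (-0.27 ± 0.08) more negative. A choice by this difference favours effects of opposite sign at 24 h and before. Psme4 codes for a proteasome activator, and its ethanol difference at 24 h was 0.37 ± 0.14, after -0.12 at 1 h and -0.17 at 6 h. Its other probe sets gave 0.05 ± 0.10 and 0.30 ± 0.14 at 24 h. For the difference from the earlier times they gave 0.16 ± 0.12 and 0.40 ± 0.17. Hbb, beta globin, comes from red cells in the tissue and belongs to a family of near-identical genes, so its probe set may read more than 1 of them. It measured 11.11, 12, 11.17, 11.39 and 11.74 in water and 11.33 to 12.36 in ethanol at 24 h, and the groups overlapped. Kcnc4, a fast potassium channel subunit, differed by -0.15 ± 0.07 at 24 h, with 10 of 11 ethanol arrays below every water array and 1 above every water array, and its other probe set by 0.11 ± 0.21. For the difference from the earlier times that other probe set gave -0.12 ± 0.26.

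Against 6 h alone 0 passed in limma and 183 (0.983%) had an unadjusted p under 0.05, led by Ncbp3, a cap-binding protein of RNA export (0.36 ± 0.12), Synpo, an actin-binding protein of dendritic spines (-0.36 ± 0.12), and Cgrrf1, a ubiquitin ligase (0.31 ± 0.11). Other probe sets of Ncbp3 and Synpo gave 0.15 ± 0.15 and 0.01 ± 0.11 at 24 h. For the difference from 6 h they gave 0.13 ± 0.21 and -0.10 ± 0.16. Against 1 h alone 0 passed in limma and 262 (1.41%) had an unadjusted p under 0.05, led by Mrto4 (0.32 ± 0.09), Ndufaf7, an assembly factor of complex I (0.31 ± 0.09), and Kcnc4 (-0.30 ± 0.09). Other probe sets of Mrto4, Ndufaf7 and Kcnc4 gave 0.07 ± 0.11, 0.14 ± 0.10 and -0.03 ± 0.29 for this difference. Both shares, and that of 1.26% against the mean of the earlier times, were below the 5% that a threshold of 0.05 would give for probe sets without any difference.

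Whether the regions were normalized together is not given in the sources used here, so only differences between ethanol and water were compared between them. The difference between the shell and the central amygdala at 24 h had 0 passing in limma and 238 (1.28%) with an unadjusted p under 0.05. This share was also below 5%. The 6 genes with the smallest p included Mrto4 (0.37 ± 0.10), Ndufaf7 (0.30 ± 0.09), Fhit, a dinucleoside hydrolase at a fragile site (0.43 ± 0.14), Clpb, a mitochondrial disaggregase (0.34 ± 0.11), and Coq5, an enzyme of coenzyme Q synthesis (0.36 ± 0.12). In these 5 genes the ethanol difference was positive in the shell, at 0.25, 0.22, 0.26, 0.24 and 0.21, and negative in the amygdala, at -0.12, -0.09, -0.16, -0.10 and -0.15. Necap1, an adaptor of clathrin vesicles, was the reverse, with -0.18 in the shell and 0.26 in the amygdala. The 6 genes were chosen for the difference between the regions, so opposite directions are favoured by the choice. Other probe sets of Clpb gave -0.09 and -0.11 in the shell, that of Necap1 0.13, and that of Ndufaf7 0.17. For the difference between the regions they gave -0.11 and -0.10 (Clpb), 0.14 (Necap1) and 0.22 (Ndufaf7), and that of Mrto4 gave -0.02.

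Direction at 24 h depended on the level of the probe set. Of all tested probe sets 53.8% were above 0, with a median of 0.01. When probe sets were divided by mean level into 10 equal classes, 41.4% were above 0 in the lowest class and 64.9% in the highest. At 1 h the corresponding shares were 49.1% and 57.4%, and at 6 h 53.7% and 55.4%. Unadjusted p values under 0.05 followed the same order: lower probe sets made up 3.33% of the lowest class and 0.215% of the highest, and higher ones 1.45% and 3.11%. When quantile normalization was repeated over the arrays of the region, 47.4% of probe sets were above 0, and the 697 with an unadjusted p under 0.05 divided into 358 higher and 339 lower, in place of 434 and 262. Without ethanol array 55 alone, 48% were above 0, with 323 higher and 321 lower. Without the arrays of low correlation, 55 and 59 among them, 48.1% were above 0, with 420 higher and 461 lower. The direction over all probe sets was therefore not stable. In the highest class, which starts at a level of 11.9, the median difference was 0.03, and in the class below it 61.2% were above 0 with a median of 0.03.

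**Figure D3:**
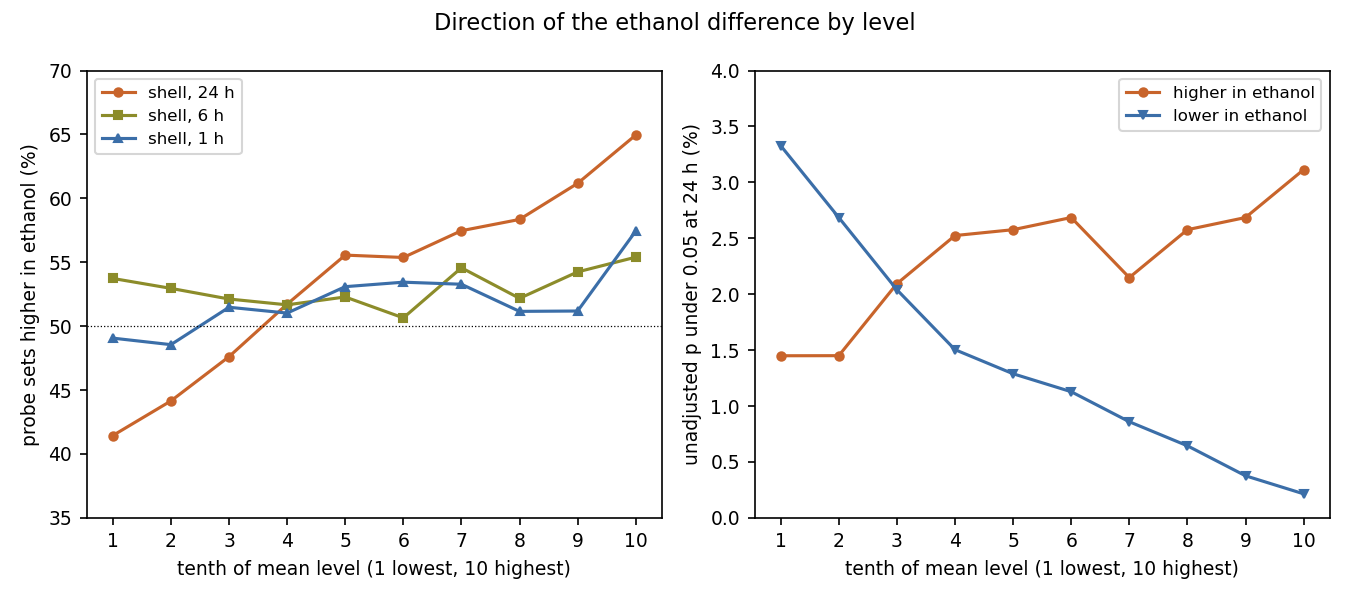
Left, the percentage of probe sets that were higher in ethanol rats (y axis) in each of 10 classes of mean level (x axis) at 1, 6 and 24 h; right, the percentage with an unadjusted p under 0.05 at 24 h in each direction. At 24 h the share above 0 goes from 41.4% in the lowest class to 64.9% in the highest.

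For the gene lists each gene was represented by its tested probe set of highest level. Over all 10320 genes so represented, 59.3% were above 0 with a median of 0.02, and 2.92% were higher and 0.853% lower with an unadjusted p under 0.05. No member of any list passed in limma. Of 44 lists with at least 3 tested members, 40 had a median above 0. That count was lower with repeated quantile normalization and without the arrays of low correlation. Without 1 of the 16 arrays, the medians of 39 of the 44 lists moved by over 1.5 times or turned in sign, and 13 of them turned. The 5 that did neither were glycolysis, the proteasome, the vacuolar proton pump, translation factors and tubulins.

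Among the 44 lists the largest shares above 0 were in energy metabolism, for glycolysis and the respiratory complexes. Glycolysis splits glucose to pyruvate in the cytosol, the citric acid cycle oxidises its product in mitochondria, and respiratory complexes I to V turn the released electrons into ATP. All 16 tested glycolysis genes were above 0, with a median of 0.16, and 5 were higher with an unadjusted p under 0.05. The median level of the list was 12.9, within the highest class of level, where 64.9% of probe sets were above 0. Pfkm, the muscle-type phosphofructokinase that commits sugar to the pathway, measured 12.24, 11.91, 12.12, 12.05 and 12.08 in water and 12.04 to 12.72 in ethanol (median 12.35), a difference of 0.27 ± 0.10. Tpi1 (0.26 ± 0.11), Ldha (0.23 ± 0.10) and Aldoc (0.22 ± 0.11), the triose isomerase, lactate dehydrogenase A and the brain aldolase, were next. For each of these 4 genes the ethanol range overlapped the water range.

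The mean of the glycolysis genes per array was 12.36, 12.42, 12.30, 12.24 and 12.23 in water and 12.25 to 12.67 in ethanol (median 12.49) at 24 h. At 1 h it averaged 12.51 ± 0.12 (SD, n = 10) in ethanol and 12.42 ± 0.08 (n = 7) in water, and at 6 h 12.44 ± 0.17 (n = 10) and 12.32 ± 0.09 (n = 5). The list was above 0 throughout at the earlier times as well, with 16 of 16 genes at 1 h (median 0.08) and 16 of 16 at 6 h (median 0.12). In the amygdala at 24 h it was 12 of 16, with a median of 0.03. Of all genes, 53.5% were above 0 at 1 h, 57.2% at 6 h and 49.5% in the amygdala.

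Respiratory complex I had 34 of 34 tested subunits above 0, with a median of 0.10, and 4 of them, all higher, at an unadjusted p under 0.05. The median was 0.05 without water array 30 and 0.17 without water array 31. Its median level, 11.9, lay at the lower edge of the highest class. Beside Ndufs3, Ndufb7 was higher by 0.32 ± 0.12, Ndufa13 by 0.23 ± 0.11 and Ndufa3 by 0.13 ± 0.06. Ndufb7 measured 11.29, 11.52, 11.45, 11.22 and 11.42 in water and 11.41 to 12 in ethanol. At 1 h 25 of 34 subunits were above 0 (median 0.03) and at 6 h 34 of 34 (median 0.16), so the median was larger at 6 h than at 24 h. Complexes II to V had 33 of 34 above 0 (median 0.11) and 5 at an unadjusted p under 0.05, among them Sdhb of complex II (0.26 ± 0.10), Uqcrc1 of complex III (0.21 ± 0.09), Atp5pf of the ATP synthase (0.19 ± 0.08, and 0.12 without water array 30) and Sdhc (0.19 ± 0.09). Their median level was 12.7, also in the highest class, and the median difference was 0.07 without ethanol array 55 and 0.19 without water array 31.

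Of the citric acid cycle list 15 of 17 were above 0, with a median of 0.10 and 4 higher at an unadjusted p under 0.05. Dlst, a subunit of the oxoglutarate dehydrogenase, was higher by 0.24 ± 0.10. Pc, which refills the cycle from pyruvate, was higher by 0.21 ± 0.08, Suclg1, of succinyl-CoA ligase, by 0.18 ± 0.08, and Idh3b by 0.15 ± 0.07. Without water array 30 the list's median was 0.07, and with repeated quantile normalization 0.06. The vacuolar proton pump, which acidifies lysosomes and synaptic vesicles, had 15 of 18 above 0 (median 0.08) and 3 higher at an unadjusted p under 0.05, Atp6v1g1 (0.25 ± 0.09), Atp6v1h (0.25 ± 0.10) and Atp6v0e2 (0.19 ± 0.09). Its median was 0.03 with repeated quantile normalization, 0.04 with the Gapdh covariate described below and 0.06 without water array 30.

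The machinery that makes and breaks proteins lay on the same side. The proteasome degrades ubiquitin-tagged proteins, and 30 of its 33 tested genes were above 0, with a median of 0.15 and 6 higher at an unadjusted p under 0.05. Psmb7, a catalytic subunit of the core, measured 12.03, 11.23, 11.47, 11.96 and 11.92 in water and 11.69 to 12.50 in ethanol (median 12.09), a difference of 0.36 ± 0.13. Water arrays 31 and 32 were the low ones, and without array 31 the difference was 0.24. The median level of the proteasome list was 11.6, in the class below the highest. Psmd4, the ubiquitin receptor of the cap, was higher by 0.34 ± 0.14, Psmd3 by 0.28 ± 0.11 and Psmd13 by 0.20 ± 0.09. At 1 h 27 of 33 proteasome genes were above 0 (median 0.04), and at 6 h 28 of 33 (median 0.13).

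Cytosolic ribosomal proteins had 31 of 33 tested members above 0, with a median of 0.14, and 4 higher at an unadjusted p under 0.05, among them Rpl11, Rps9 (0.23 ± 0.11), Rpl6 (0.20 ± 0.08) and Rps3 (0.19 ± 0.09). Ribosomal protein genes have many processed pseudogenes, so these probe sets may read more than their gene. Their median level was 13.1, in the highest class, and the median difference was 0.09 without ethanol array 55 and 0.22 without water array 31. Ribosome biogenesis factors had 33 of 42 above 0 (median 0.09), with 5 higher at an unadjusted p under 0.05, among them Mrto4, Pes1 (0.30 ± 0.13, and 0.19 without water array 31), Wdr74 (0.15 ± 0.07) and Rrp9 (0.16 ± 0.07). The biogenesis median was 0.05 without ethanol array 55 and 0.06 without water array 33. Its median level was 10.05, in the seventh class from the bottom, where 57.5% were above 0. Translation factors had 32 of 34 above 0 (median 0.09) and 1 higher at an unadjusted p under 0.05, Eif2b5, the catalytic subunit of the exchange factor eIF2B (0.22 ± 0.11). Eif3m, of the factor that loads the small subunit, gave 0.19 ± 0.10.

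Among folding proteins the members of the heat shock list at an unadjusted p under 0.05 were all of the chaperonin. The chaperonin CCT is a ring that folds actin and tubulin. All 7 of its tested subunits were above 0, with a median of 0.23, and 3 were higher at an unadjusted p under 0.05, Cct7 (0.26 ± 0.11), Cct8 (0.23 ± 0.10) and Cct4 (0.22 ± 0.08), while Cct2 gave 0.24 ± 0.12. The other 17 tested heat shock genes had 11 above 0, a median of 0.05 and none at that threshold. This division was made after the values were seen. Tubulins and microtubule proteins, the clients and partners of that ring, had 17 of 18 above 0 (median 0.11), with Stmn4 (0.32 ± 0.15), Tuba4a (0.28 ± 0.11) and Map4 (0.19 ± 0.09) higher at an unadjusted p under 0.05.

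The endoplasmic reticulum list had 20 of 26 above 0, a median of 0.06 and 2 higher at an unadjusted p under 0.05. Pdia3, a disulfide isomerase that folds glycoproteins, measured 10.70, 10.05, 10.08, 9.93 and 10.09 in water and 10.21 to 11.20 in ethanol (median 10.74). Its difference was 0.53 ± 0.18, a 1.44-fold higher level, and water array 30 alone reached the ethanol range. Hspa5, the chaperone BiP, was higher by 0.20 ± 0.09. Ddit3, the stress transcription factor CHOP, gave 0.39 ± 0.19, and Eif2ak3, the stress kinase PERK, 0.15 ± 0.08. Golgi and vesicle coat genes, the group of Gorasp2, had 27 of 41 above 0 and a median of 0.03, with Sec24c of the COPII coat at 0.19 ± 0.08 and Tmed2, a cargo receptor, at 0.17 ± 0.09. Motor proteins, the group of Kif5c, had 22 of 26 above 0 and a median of 0.04, with Dync1h1, the dynein heavy chain, at 0.18 ± 0.08 and Kif3a at 0.15 ± 0.10. With repeated quantile normalization the Golgi median was -0.0012 and the motor median 0.0018. Genes of the small RNA pathway and partners of Snd1 had 14 of 20 above 0 and a median of 0.05, with Drosha, the microRNA processing nuclease, at 0.22 ± 0.11 and Tnrc6b, of the silencing complex, at 0.20 ± 0.11. This last median was 0.01 without ethanol array 55, 0.02 without water array 30 or ethanol array 53, and 0.02 with repeated quantile normalization. Snd1 and Gorasp2 were themselves counted in their lists and were picked for small p values in the same data. The counts of these lists thus support nothing about them, and of all genes 59.3% were above 0.

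**Figure D4:**
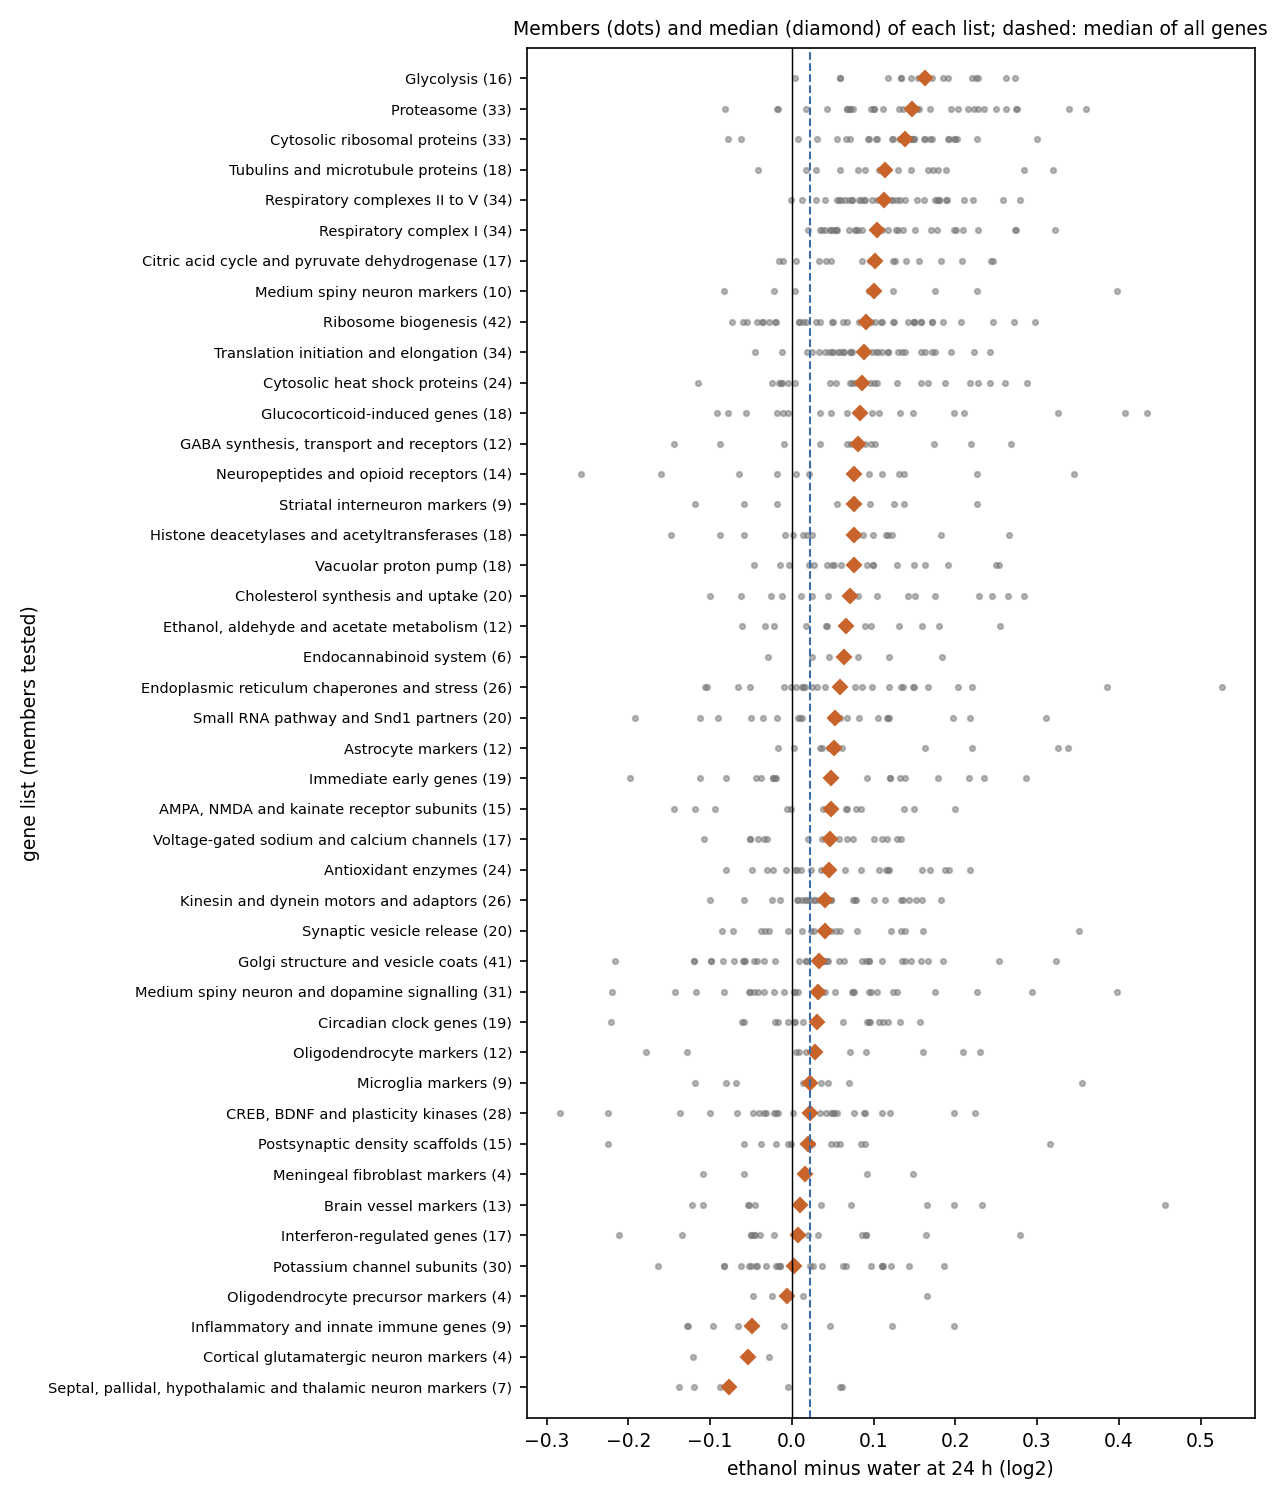
Ethanol minus water at 24 h (log2, x axis) for the tested members of 44 gene lists (y axis, number of members in brackets); grey dots are genes, diamonds the list medians and the dashed line the median of all genes. Glycolysis has the highest median, 0.16, and the septal and other neuron markers the lowest, -0.08, which turned to 0.05 without ethanol array 58.

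Genes of neuronal signalling followed, and some of these lists had medians on either side of 0 depending on the scaling. With repeated quantile normalization the medians of the dopamine signalling, plasticity kinase, potassium channel and oligodendrocyte lists were -0.01, -0.03, -0.02 and -0.01. Those of the postsynaptic scaffold, interferon, microglia and vessel lists were -0.0014, -0.0046, -0.0028 and -0.0075, and that of the synaptic vesicle list 0.0063. Without 1 array the dopamine signalling median lay between -0.04 (water array 32) and 0.10 (ethanol array 57). The medium spiny neuron and dopamine signalling list had 20 of 31 above 0, a median of 0.03 and 0 at an unadjusted p under 0.05 in limma in either direction. Adcy5 gave 0.40 ± 0.22, with 9.48, 9.23, 8.93, 9.49 and 9.06 in water and 8.70 to 10.30 in ethanol, and the water range lay inside the ethanol range. Ppp1r1b, the dopamine-regulated phosphatase inhibitor DARPP-32, gave 0.17 ± 0.20, and Gnal, the G protein of striatal dopamine and adenosine receptors, -0.14 ± 0.14. Foxp2, a transcription factor of these cells, gave -0.22 ± 0.20. At 6 h 8 of 31 members were above 0 and at 1 h 20 of 31, so the direction was not shared by the times.

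Neuropeptides and opioid receptors had 10 of 14 above 0 (median 0.08). The median was -0.04 without the arrays of low correlation, 0.02 without ethanol array 55 and 0.01 with no filter. In this list Nmb, neuromedin B, gave -0.26 ± 0.21 and Avp, vasopressin, -0.16 ± 0.09. GABA genes had 9 of 12 above 0 (median 0.08). Abat, which breaks GABA down, was higher by 0.22 ± 0.11 at an unadjusted p under 0.05, while Slc32a1, the vesicular GABA transporter, gave 0.27 ± 0.19 and Gabrb1, a receptor subunit, -0.14 ± 0.08. Ionotropic glutamate receptor genes had 10 of 15 above 0 (median 0.05), with Gria1, an AMPA receptor subunit studied in drug exposure, at 0.20 ± 0.12 and Cacng2, an AMPA receptor auxiliary subunit, at -0.12 ± 0.07. Postsynaptic scaffolds had 9 of 15 above 0 (median 0.02), with Nrgn, which holds calmodulin, at 0.32 ± 0.21 and Camk2a, the postsynaptic kinase, at -0.22 ± 0.16.

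Synaptic vesicle genes had 14 of 20 above 0 (median 0.04), with Sv2a, a vesicle membrane protein, at 0.35 ± 0.17 and Syt5, a calcium sensor, at 0.16 ± 0.10. Potassium channel genes had 17 of 30 above 0 (median 0.00), with Kcnj3, a G-protein-gated channel subunit, at -0.16 ± 0.09 and Kcnn3, a calcium-gated one, at 0.11 ± 0.08. Sodium and calcium channel genes had 11 of 17 above 0 (median 0.05), with Scn1a at 0.12 ± 0.11 and Cacna1e at -0.11 ± 0.09. The endocannabinoid list had 5 of 6 above 0 (median 0.06), with the lipases Abhd12 at 0.18 ± 0.10 and Abhd6 at 0.08 ± 0.08. Histone deacetylases and acetyltransferases had 14 of 18 above 0 (median 0.08), where Hdac11 was the 1 gene at an unadjusted p under 0.05, and Sirt3 (0.18 ± 0.10) and Hdac3 (0.12 ± 0.09) followed.

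Genes that follow activity, stress hormone or time of day were also read. Immediate early genes, which neurons switch on within minutes of activity, had 10 of 19 above 0 (median 0.05), with Junb at 0.29 ± 0.19 and Egr1 at 0.24 ± 0.22, and 0 at an unadjusted p under 0.05 in limma. Plasticity kinases and their targets had 16 of 28 above 0 (median 0.02), with Cdk5 at 0.20 ± 0.11 and Camk2g at -0.14 ± 0.08. Glucocorticoid-induced genes had 12 of 18 above 0 (median 0.08). Ddit4, an inhibitor of the growth kinase mTORC1 and a glucocorticoid target, was higher by 0.43 ± 0.20 at an unadjusted p under 0.05, after -0.13 at 1 h and -0.38 at 6 h. It measured 9.85, 8.43, 9.21, 8.93 and 9.29 in water and 8.98 to 10.33 in ethanol, so the water arrays spanned most of the ethanol range, and without water array 31 the difference was 0.26. Pdk4, a brake on pyruvate oxidation, gave 0.41 ± 0.26. Clock genes had 13 of 19 above 0 (median 0.03), with Per3 at -0.22 ± 0.12 and Cry1 at 0.16 ± 0.13.

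Immune genes lay around 0. Inflammatory genes had 3 of 9 above 0 (median -0.05, range -0.13 to 0.20), with Nfkb1 at -0.13 ± 0.07 and Myd88 at -0.13 ± 0.08. Interferon-regulated genes had 9 of 17 above 0 (median 0.01), with Psmb10, an immunoproteasome subunit, higher by 0.28 ± 0.10 and Rtp4 lower by -0.21 ± 0.09, both at an unadjusted p under 0.05. The enzymes of ethanol, aldehyde and acetate metabolism had 9 of 12 above 0 (median 0.07), with Aldh1b1 at 0.25 ± 0.13 and Aldh2, the main mitochondrial aldehyde dehydrogenase, at 0.18 ± 0.14. Antioxidant enzymes had 19 of 24 above 0 (median 0.05), with Hmox2 (0.22 ± 0.10) and Prdx5 (0.19 ± 0.09) higher at an unadjusted p under 0.05 and Sod1 at 0.17 ± 0.08. Cholesterol synthesis genes had 16 of 20 above 0 (median 0.07), with Mvd, an enzyme of the mevalonate pathway, higher by 0.24 ± 0.10 at an unadjusted p under 0.05 and Pmvk at 0.26 ± 0.13.

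Cell type markers were compared the same way. Astrocyte markers had 11 of 12 above 0 (median 0.05), where Aldoc, also in the glycolysis list, was the 1 gene at an unadjusted p under 0.05. Gfap, the astrocyte filament, gave 0.34 ± 0.27 and Aldh1l1 0.16 ± 0.10. Oligodendrocyte markers had 10 of 12 above 0 (median 0.03), with Mobp at 0.21 ± 0.17 and Mbp at 0.16 ± 0.12, and precursor markers 2 of 4. Microglia markers had 6 of 9 above 0 (median 0.02). C1qa, a chain of complement C1q, was higher by 0.35 ± 0.12 at an unadjusted p under 0.05, while Aif1, the marker Iba1, gave -0.12 ± 0.08. Vessel markers had 8 of 13 above 0 (median 0.01), with Vwf, von Willebrand factor, higher by 0.46 ± 0.18 and Cldn5, the endothelial tight junction claudin, by 0.23 ± 0.10, both at an unadjusted p under 0.05. Interneuron markers had 6 of 9, meningeal markers 2 of 4, and cortical neuron markers 0 of 4 above 0 (median -0.05, and 0.01 without water array 31). The septal, pallidal, hypothalamic and thalamic neuron markers had 2 of 7 above 0 (median -0.08). Their median turned to 0.05 without ethanol array 58, 0.01 without ethanol array 55, 0.03 without water array 32 and 0.02 without the arrays of low correlation.

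The arrays differed in markers of neurons of the shell and of neighbouring regions. The mean of 10 medium spiny neuron markers ran from 10.97 to 12.35 over the ethanol arrays and from 11.51 to 12.07 over the water arrays. The mean of 7 markers of septal, pallidal, hypothalamic and thalamic neurons ran from 7.62 to 9.32 in ethanol and from 8.40 to 8.90 in water. Ethanol array 57 was lowest for the first and highest for the second, and ethanol array 58 was highest for the first and lowest for the second. Means over the groups were 11.94 and 11.83 for the medium spiny markers and 8.56 and 8.60 for the others, and their part in the results was measured only by the covariates that follow. With the medium spiny marker mean as a covariate 0 probe sets passed in limma and 1112 had an unadjusted p under 0.05. The glycolysis median was then 0.17, that of complex I 0.11 and that of the proteasome 0.16. The medians of dopamine signalling, immediate early genes and plasticity kinases were -0.05, -0.03 and -0.0016, in place of 0.03, 0.05 and 0.02. That of the septal and other neuron markers was 0.05. Members such as Adcy5 belong to both the dopamine signalling list and this covariate. The move of that list's median is thus partly fixed by the overlap and is no result about its genes. With the mean of the septal and other markers as a covariate 0 passed in limma and 934 had an unadjusted p under 0.05, 588 higher and 346 lower. The medians of glycolysis, complex I, the proteasome, dopamine signalling, immediate early genes and plasticity kinases were then 0.17, 0.11, 0.15, 0.01, 0.02 and 0.02.

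**Figure D5:**
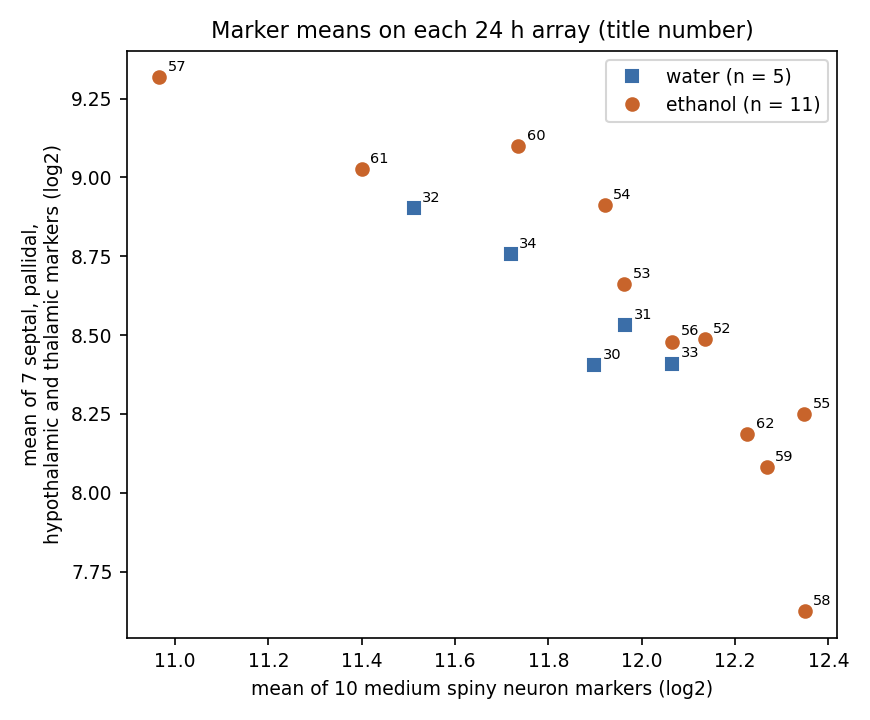
Mean of 10 medium spiny neuron markers (log2, x axis) against the mean of 7 septal, pallidal, hypothalamic and thalamic neuron markers (log2, y axis) on each 24 h array, labelled by title number, with water arrays as squares and ethanol arrays as circles. Ethanol array 57 lies at the upper left and ethanol array 58 at the lower right, and the water arrays lie between them.

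Signs of array and RNA quality did not differ between the groups at an adjusted p under 0.05 in the exact permutation test. With 5 water arrays this cannot show that the groups are alike. The difference between the 3′ and 5′ control probe sets of Gapdh, which grows as RNA or its amplification shortens, was 1.83 ± 0.26 (SD, n = 11) in ethanol and 2.01 ± 0.29 (n = 5) in water, a difference of -0.18 (exact permutation test, two-sided, p = 0.225, adjusted p = 0.429 over 4 measures). That of beta-actin went the other way, at 3.14 ± 0.27 in ethanol and 3.03 ± 0.12 in water, a difference of 0.11 (exact permutation p = 0.415, two-sided). The median correlation of an array with the others of the region averaged 0.991 in ethanol and 0.993 in water (exact permutation p = 0.142, two-sided), and without water array 31 the exact permutation p was 0.0432. Ethanol arrays 55 and 59 had low correlations, as did 3 arrays at the earlier times. Without these 5 arrays 0 probe sets passed in limma, the glycolysis median was 0.14, that of the proteasome 0.10, that of complex I 0.05 and that of ribosomal proteins 0.06. With the Gapdh difference as a covariate these medians were 0.14, 0.14, 0.16 and 0.17. The part of RNA quality in the results was not tested beyond these values.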

How the data were processed

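RNA was measured on Affymetrix rat arrays, 96 in all, of which the 48 from the accumbens shell gave the main model and the others the comparison with the amygdala. The deposited table holds log2 values, 1 per probe set and array, that the authors made with RMA, per the submitters' processing notes. The RMA version, scan dates and any filter are not given in the sources used here. RMA normalizes arrays to a shared distribution, so a shift of all genes cannot be seen.

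Of 31099 probe sets, 57 controls were left out, and 18625 with a mean above the 40th percentile of the shell arrays (7.09) were tested. Symbols came from the platform annotation, updated by Entrez ID through RefSeq: 20826 probe sets had 1 symbol, 436 several and 9780 none, the last not named here. A linear model in limma 3.58.1 (R 4.3.3) estimated 1 mean per combination of treatment and time, with a variance trend on level and Benjamini-Hochberg adjustment over all probe sets tested, with adjusted p under 0.05 as passing. The fit over both regions treats arrays as independent. Pairing of title numbers could not be checked at 24 h, since the groups compared share none.

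Named genes are the 12 with the smallest p in each direction at 24 h, 6 for the difference from earlier times and from the amygdala, and 3 for 24 h against each earlier time. For each of 46 lists up to 4 members with the smallest p could be named, and short lists are otherwise given by counts. The arrays described, the genes and the lists were chosen with earlier results of these data known. Single values per array were compared with an exact permutation test. The limma script was tested on simulated data. No arrays held identical values, and the highest correlation between 2 arrays was 0.997. The number of arrays limits the precision. Alternatives tried were the filter, repeated quantile normalization, array weights, RNA integrity, the variance trend, low-correlation arrays, the title number, the arrays in the fit, runs of title numbers in the amygdala and each array left out. Marker means as covariates were added after the data were seen.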

Additional observations from a re-analysis of the deposited data

Results flagged for a closer look

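Among 186 sets of values of the 5 water arrays at 24 h, 11 (5.91%) had a highest or lowest value whose gap to its neighbour exceeded Dixon's limit of 0.71 of the range. Chance flags about 1 in 20 groups. Water array 32 was high for Rpl11 (13.317, next 13.072), Pclaf (8.2049, next 7.4856) and Prc1 (8.3452, next 7.3411). Water array 31 was low for Stmn4 (10.373), Pes1 (8.101), Atp6v1h (11.54) and Tars3 (9.2287, next 9.7015), and high for Myd88 (8.7237). Its median correlation with the other arrays of the region, 0.99012, was also below that of the other water arrays (next 0.99362). Water array 30 was high for Pdia3 (10.701, next 10.088) and low for Prdx5 (11.542, next 11.611). What set these arrays apart was not tested.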

How the results depend on the processing

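Of the 126 differences at 24 h and 18 differences of effects of named probe sets, 0 changed sign under the settings tried. They were named for small p values in the main fit of the same arrays. A stable sign is thus favoured by the choice and is no support for them. The other probe sets of named genes were not covered. Without 1 array, 32 of the 126 moved by over 1.5 times. Medians of lists near 0 changed sign and the direction over all probe sets turned, as given above. In limma the count of probe sets passing at 24 h was 1 with only the 16 arrays in the fit (1380206_at) and 0 to 1 when each array was left out (1 without water array 34, Snd1). At an unadjusted p under 0.05 the 696 probe sets were 1542 with no filter (504 higher, 1038 lower), 428 with the filter at the 60th percentile, 1517 with array weights, 1177 with the Gapdh difference as a covariate and 1112 with the medium spiny marker mean, an alternative chosen after the data were seen. They were 507 to 904 when each array was left out. No filter left 31042 probe sets to test and the filter at the 60th percentile 12417, in place of 18625, here and in the counts that follow. For the difference from the earlier times (234) these were 811, 95, 522 with weights, 412 without low-correlation arrays and 190 to 318. Against 6 h (183) they were 658, 77, 383 and 158 to 263. Against 1 h (262) they were 819, 99, 734, 533 with the Gapdh covariate, 536 without low-correlation arrays and 215 to 329. Against the amygdala (238) they were 872, 91, 976, 364, 424 with runs of title numbers as a block and 193 to 296. The cause of these moves was not tested, apart from the number of probe sets tested under the filters. The difference in median correlation was -0.0023 to -0.0013 when each array was left out, past the threshold in the exact permutation test without water array 31. Lists with a median above 0 numbered 35 to 41 when each array was left out. Their number was below 35 with repeated quantile normalization and also without low-correlation arrays. With the title number as a replicate block 0 passed in limma and 637 had an unadjusted p under 0.05 (386 higher, 251 lower), with a consensus correlation of -0.294. The groups compared at 24 h share no number, so this is no pairing. The filter at the 60th percentile left out 30 of 136 probe sets of named genes.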
